A study of Mus musculus with 207 samples.

Results

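The heat-shock proteins and chaperonins described here are 66 genes, taken by symbol: the Hspa and Hsph1 chaperones, the small Hspb genes, Hspd1 and Hspe1, the J domain genes Dnaja, Dnajb and Dnajc, Tcp1 and the cytosolic chaperonin genes from Cct2 to Cct8 (Cct6a does not match by symbol), Bag1 to Bag6, and the factors Hsf1 and Hsf2, neither of which could be read above the minimum. They were the ones, of 84 matching symbols with a probe set of their own, whose brightest probe set reached 100 units at the 67th percentile over all arrays, and they stood among 10214 genes that passed the same minimum. The bone marrow came from 207 F2 mice of an intercross of AKR and DBA/2 strains, 16 weeks of age, of which 93 were female and the rest male. All of the mice, of both sexes, were apoE-deficient, so that no group had normal apoE. Adherent cells were grown for 2 weeks in DMEM that held fetal bovine serum (10%) and, at 20%, medium conditioned by L cells, a source of the growth factor that turns marrow cells into macrophages, and the RNA of each mouse was read on 1 Affymetrix 430v2 array. A signal is the MicroArray Suite 5.0 (MAS5) value on a linear scale, and the mouse is the replicate throughout.

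Chaperones of the Hsp70 family bind exposed hydrophobic stretches of other proteins and release them in a cycle driven by ATP. J domain proteins bring them their clients and start the cycle, while Bag proteins and the Hsp110 chaperones exchange the nucleotide and end it. Heat or misfolded protein in the cytosol frees heat shock factor 1, which switches on the inducible members of the family, and misfolded protein in the endoplasmic reticulum (ER) raises another set around Hspa5. Macrophages make much protein for lysosomes and secretion and engulf dead cells, and so use both arms.

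The labels give each mouse a code, from smi33 to smi126 in the females and from 14smi9 to 14smi122 in the males, and they do not say what its number stands for. The codes of females and males are written as different series, so that sex and code series cannot be told apart. All 10 macrophage markers examined were above the signal minimum, none of the 4 T or NK cell markers with a probe set was, 7 of 8 stromal markers were, and so were 3 of 8 neutrophil markers. The summed stromal signals ran from 500.9 to 97149 in the females and from 530.5 to 43513 in the males, with medians of 5575 and 11777, and the neutrophil sums to 19979 and 32727, with medians of 3171 and 2485. Their part in the differences between the sexes was not tested. In bulk RNA, fewer cells of a type and less RNA per cell cannot be told apart.

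Several runs of mice stood apart. The 24 males 14smi55 to 14smi78 had median array signals from 76 to 122.3, against 54.7 to 78.9 in the other 90 males. Mice with adjoining numbers resembled each other: after the linear trend was taken out, the signal of a mouse correlated with that of the next number with a median r of 0.38 over the members in females and 0.47 in males, beside 0.33 and 0.44 over all genes. The mice are therefore not independent along the code, and the p-values below, which treat them as independent, are too small. A further run of 7 females, smi99 to smi105, and one of 7 males, 14smi93 to 14smi99, were picked out by the signal of a member, Hspa4l, and are described next.

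Both runs were picked out as the mice with the highest signals of Hspa4l, an Hsp110 chaperone that heat induces. That they lie above the other mice in this gene was therefore fixed by the choice. The Hspa4l signal was 3485, 3319, 4125, 5109, 4676, 3532 and 4151 in the females smi99 to smi105, in that order. It lay between 311.1 and 1259 in the other 86 females, whose median was 647.1. Every female of the run was thus above every other female, and the step was sharp at both ends, with no intermediate signal. In the males 14smi93 to 14smi99 the signal was 4331, 3935, 3724, 2887, 1261, 1527 and 2041, and in the other males it lay between 377.6 and 1200, with a median of 644.6. The males 14smi93 to 14smi95 were in the range of the females of the run, 14smi96 was below it, and those 14smi97 to 14smi99 were lower again but above every remaining male.

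Subunits of the chaperonin TRiC, the double ring that folds actin and tubulin, moved in the same mice, although not all of them did. Cct2 gave 13281 to 16673 in the females smi99 to smi105 and 7734 to 11656 in the others. Tcp1, which encodes the first subunit of that ring, gave 10605 to 12657 against 6185 to 10232. Neither gene's ranges overlapped. In the males, Cct2 was 15828, 13939, 12309 and 12229 in 14smi93 to 14smi96, above the 10972 reached by the males outside the run, and 10336, 10234 and 10779 in 14smi97 to 14smi99, which were within their range. Cct3, Cct5 and Cct7 of the same ring showed no such step in the females, with Cct3 between 4679 and 5915 in the run against a median of 6070 over all females. Cct4 and Cct8 lay between, with overlap, and 4 and 3 of the 7 highest females were of the run. In the males, Tcp1 overlapped, at 8372 to 11784 against 6290 to 10340, and so did Cct4, at 8829 to 14600 against 6310 to 11447.

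The inducible Hsp70 genes were high in the same mice and in some others. Hspa1a, which encodes an inducible Hsp70, gave 375.9 to 1177 in the females of the run against 11.3 to 808.4 in the others, and 5 of the 7 highest females were of the run. In the males 14smi93 to 14smi99 it gave 474.6 to 961.6, and the other males did not pass 440.0. Hspa1b, its near-identical neighbour, gave 1035 to 2519 in those males and at most 967.2 in the rest. Hsph1, the other inducible Hsp110 gene, gave 1815 to 2893 in the females of the run, where 6 of the 7 highest females were, and 2025, 1772, 1660 and 1304 in the males 14smi93 to 14smi96 but 855.3 to 970.6 in those 14smi97 to 14smi99. The males 14smi97 to 14smi99 therefore had high inducible Hsp70 signals with low Hsph1 signals.

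Other members listed as stress-inducible differed among themselves. Dnajb4, a J domain protein, was above the median of the others in all of these mice, at 1693 to 2263 in the females of the run against a median of 1447 and at 1816 to 2422 in the males against 1605, with overlap. Dnajb1, the inducible J domain partner of Hsp70, gave 1657 to 2226 in the females of the run, below or at the median of 2251 over all females. Bag3, which carries clients of the small heat-shock proteins to autophagy, gave 807.8 to 1148 there, also below the female median of 1201. Dnajc7, a constitutive J domain protein that shuttles clients between Hsp70 and Hsp90, gave 1122 to 1645 in the 7 females and 1968 to 3290 in the other 86, so that it stood below all of them.

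The members were few among the genes that stood apart in these mice. All 7 females of the run were above every other female in 4 members, Cct2, Hspa4l, Hspb11 and Tcp1 (6.06% of 66), and in 364 genes of all those tested (3.56%). They were below every other female in 1 member, Dnajc7, and in 352 genes (3.45%). All 7 males were above every other male in 3 members, Hspa1a, Hspa1b and Hspa4l (4.55%), beside 0.529% of all genes, and below in 0 members beside 0.313%. Hspa4l was the 1 member among 33 genes (0.323%) that were above in both sexes. The mice were picked out by their Hspa4l signals, so the place of Hspa4l in these counts was given by that choice. No test was made of these mice.

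The array controls moved with the run in part. The ratio of the 3' to the 5' probe set of Actb, which rises as RNA is degraded or copied short, was 1.36 to 1.55 in the 7 females, against 1.06 to 1.42 in the others. In the males it was 1.54, 1.46, 1.37 and 1.32 in 14smi93 to 14smi96 and 1.22 to 1.27 in 14smi97 to 14smi99, with 1.11 to 1.35 in the rest. It was thus high in the mice in which Hspa4l was highest. The Gapdh ratio (0.923 to 1.02 in the 7 females, 0.803 to 1.12 in the others) and the array medians (61.8 to 74.1 against 51.1 to 112.4) lay within the range of the other females. In the 7 males the Gapdh ratio was 0.816 to 0.852, all above the median of 0.785 in the other males but within their range of 0.731 to 0.863. The part of RNA quality in the signals of these mice was not tested, and several results below that rest on them are given with and without them.

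**Figure D1:**
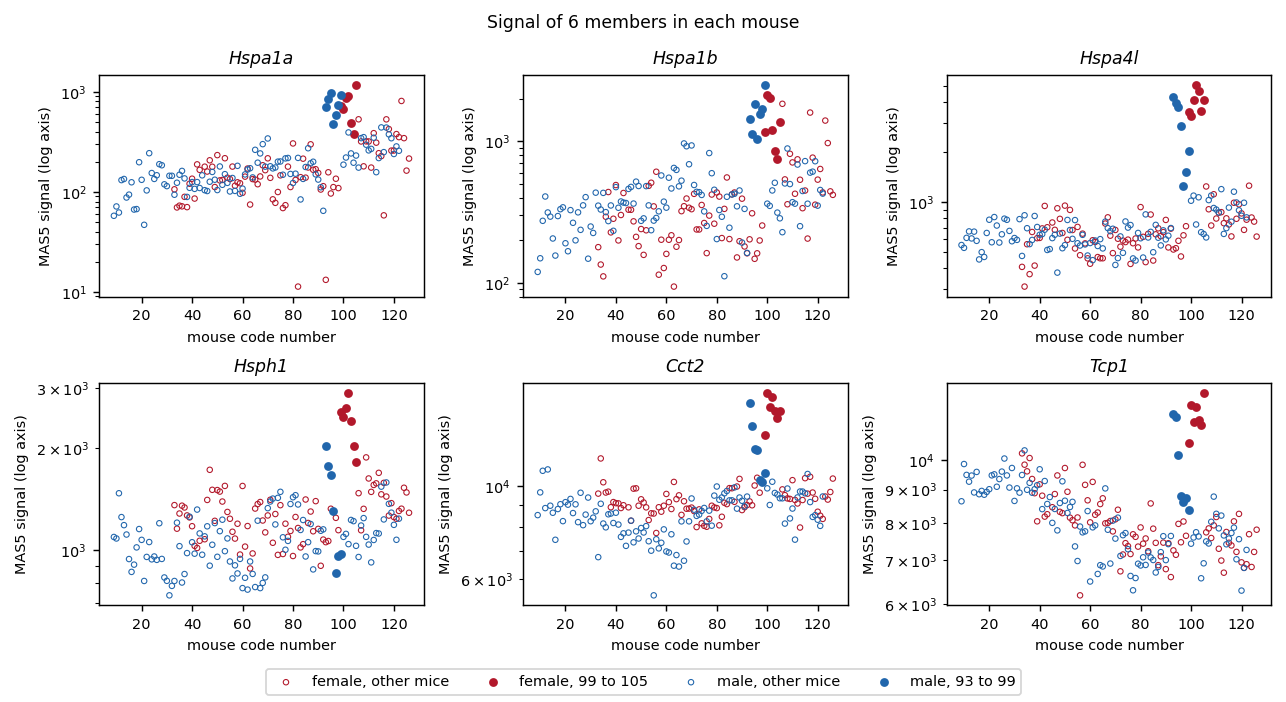
MAS5 signal (log axis) of Hspa1a, Hspa1b, Hspa4l, Hsph1, Cct2 and Tcp1 against the mouse code number, 1 point per mouse, females in red and males in blue, with filled points for the females smi99 to smi105 and the males 14smi93 to 14smi99. Hspa4l lies between 3319 and 5109 in the filled red points and does not pass 1259 in the open red points.

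Promoter sequences are shown for genes with a known stress response, some of which are read as pairs below. Hspd1 and Hspe1, which encode the mitochondrial chaperonin Hsp60 and its lid Hsp10, lie head to head on chromosome 1 with 215 bases between an Hspd1 start and the Hspe1 start. The stretch at chr1:55088053-55088082 (RefSeq, GRCm38.p6, strand of Hspe1) is shown because both promoters share it, and the capitals mark 2 overlapping matches to the heat shock element searched here, GAANNTTCNNGAA on either strand.
Hspe1 and Hspd1: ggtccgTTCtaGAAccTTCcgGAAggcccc
In windows of 300 bases, 250 before and 50 from the start, 179 of 27025 gene symbols (0.662%) had such a match. Among the 55 members with an entry, 4 (7.27%) had one, Hspd1, Hspe1, Hsph1 and Dnajb6, and that of Hsph1 lay after its start.

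Hspa1a and Hspa1b, neighbours of near-identical coding sequence, are shown because they are also alike before their starts. The bases before the start are those of chr17:34972157-34972276 and chr17:34959239-34959358, both on the minus strand.
Hspa1a: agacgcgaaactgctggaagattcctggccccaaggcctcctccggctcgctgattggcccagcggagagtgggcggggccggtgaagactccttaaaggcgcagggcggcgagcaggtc
Hspa1b: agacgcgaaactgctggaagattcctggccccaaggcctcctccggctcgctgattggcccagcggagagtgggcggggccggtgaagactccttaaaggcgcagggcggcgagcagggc
These had the same base at all but 1 of 120 positions, and the 300-base windows at 296. Neither window held the heat shock element in the form searched. The transcripts of this gene pair can cross-hybridize, so that their signals are not separate evidence.

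Hspa5, the Hsp70 of the ER, and Dnajc3, an ER J domain protein that restrains the PERK kinase, had a match to the ER stress element, CCAAT and CCACG 9 bases apart, in the bases before the start at chr2:34771940-34772089 and chr14:118937782-118937931, both on the plus strand. They were the members with a match among 55 (3.64%), beside 37 of 27025 symbols (0.137%), and the capitals mark it.
Hspa5: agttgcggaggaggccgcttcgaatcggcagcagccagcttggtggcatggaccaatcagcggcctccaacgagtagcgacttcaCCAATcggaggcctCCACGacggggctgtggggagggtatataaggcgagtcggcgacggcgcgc
Dnajc3: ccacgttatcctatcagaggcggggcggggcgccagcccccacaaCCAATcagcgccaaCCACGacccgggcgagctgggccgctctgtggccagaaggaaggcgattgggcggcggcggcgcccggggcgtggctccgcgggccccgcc
A match describes the letters and not a site in use.

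The median signals of the families covered a wide range, although signals of different probe sets cannot be ranked against each other. In the females they ran from 159.4 to 27232 over the 11 Hsp70 and Hsp110 members, from 3738 to 9168 over the 7 TRiC subunits and from 159.5 to 6516 over the 23 Dnajc members. Hspa8, the constitutive Hsp70, had a mean of 27406 ± 2550 (SD, n = 93) in females and 27738 ± 2825 (SD, males) in males. The inducible Hspa1a had its lowest, median and highest signals at 11.3, 159.4 and 1177 in females and at 46.8, 157.5 and 961.6 in males, a wider range as a fold than that of Hspa8, although the lowest signals are below the minimum of 100. Hspb1, the small heat-shock protein Hsp27, also covered a wide fold, at 6, 237.2 and 1669 in females and 17.3, 291.1 and 908 in males. Hspa2, Hspbap1 and Dnajc27 were the members nearest the minimum, with 67th percentiles of 188, 191 and 176, and Hspb8 (87.9), Dnajb8 and Hspb2 (74.2) lay just under it. Hsf2 was also under it at 69.6, with 17 further symbols left out, while Hsf1, the factor of the heat shock response, has no probe set named for it in the annotation used.

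The first question was which chaperones differed between the sexes. Of the 66 members 19 were higher in females (28.8%) and 5 in males (7.58%), beside 19.6% and 11.1% of all genes tested. Here called means a Bonferroni-adjusted p under 0.05 over 20036 probe sets in a 2-sided Mann-Whitney test, and the background of calls in either direction was 30.6%. The members' share of 36.4% was near it. The median female to male ratio was 1.02 over the members and 1.01 over all genes. Without the females smi99 to smi105 and the males 14smi93 to 14smi99, 25 members passed, of which 23 were the same, Dnajc5 being lost and Cct7 and Dnajc30 gained.

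Bag3 had the clearest female bias. Its lowest, median and highest signals were 763.1, 1201 and 1796 in the females and 442.0, 749.8 and 1123 in the males. The ranges overlapped, but a female exceeded a male in 94.9% of all pairs, and the mean was 1210 ± 219 (SD, n = 93) against 764 ± 169 (SD, males). That is a 1.58-fold difference (Mann-Whitney adjusted p = 2.14e-24), and it was 1.59-fold without the runs of mice (adjusted p = 5.51e-23). With the 3' to 5' ratios of Gapdh and Actb as covariates in limma, the Bag3 difference was 0.71 on the log2 scale (adjusted p = 2.01e-15). Of the other Bag genes, Bag4, which silences death receptors, showed a 1.31-fold female bias (adjusted p = 3.71e-13), and Bag2, an inhibitor of the ligase CHIP, was 1.44-fold higher in males (adjusted p = 3.07e-09).

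Of the 7 members with their chaperone part in the lumen of the ER, 5 showed a female bias and 0 a male bias, beside 19.6% and 11.1% of all genes, and the list's median ratio was 1.22. With the ratios of 3' to 5' probe sets as covariates none of the 5 passed in limma, the differences being 0.34 (Dnajc1), 0.19 (Dnajb11), 0.23 (Dnajc3), 0.11 (Dnajc10) and 0.04 (Hspa5) on the log2 scale. Dnajc1, a J domain protein of the ER membrane, had medians of 1108 in females and 670.0 in males, within 684.2 to 1910 and 295.2 to 1382, and was 1.56-fold higher in females (adjusted p = 5.88e-17). Dnajb11, a soluble partner of Hspa5, was 1.26-fold higher (adjusted p = 2.52e-20) and a female exceeded a male in 91.4% of pairs. Dnajc3 and the reductase Dnajc10 were 1.24-fold and 1.22-fold higher. Hspa5 itself was at 21841 ± 3397 (SD, n = 93) against 19265 ± 2258 (SD, males), 1.13-fold higher (adjusted p = 4.84e-06). Its second probe set pointed the other way, to -0.14 on the log2 scale, and that of Dnajc10 to -0.16, neither passing. Dnajc3 had a probe set that was called the opposite way, and the second probe set of Dnajc1 was called the same way. Hsp90b1, the ER form of Hsp90 and no member here, was lower in females, at 6913 ± 1127 against 8782 ± 1497 (adjusted p = 7.25e-13).

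Among the remaining members the directions were mixed. Dnajb14, a J domain protein that sits in the ER membrane and faces the cytosol, and Dnajb2, which takes ubiquitin-bound clients, each had a 1.40-fold female bias (adjusted p = 9.61e-15 and 1.30e-05). The ribosome biogenesis factor Dnajc21 was 1.31-fold and the ribosome-bound Dnajc2 1.28-fold higher in females. On the male side, Dnajc12, which binds the enzymes that hydroxylate aromatic amino acids, was 1.30-fold, Dnajc11 of the mitochondrial membrane 1.2-fold and Dnajb12 1.2-fold higher. The chaperonin divided, with Cct8 1.11-fold higher in females (adjusted p = 1.16e-09), Cct4 1.10-fold higher in males (adjusted p = 1.98e-04) and the other 5 subunits not passing.

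Of the 9 stress-inducible cytosolic members measured, Bag3 and Hsph1 were higher in females by their brightest probe sets, 0 in males, and 7 did not pass. Hspa1a, Hspa1b, Hspa4l, Hspb1 and Dnajb1 had ratios of 1.06, 0.966, 1.15, 0.847 and 1.00. Without the runs of mice these ratios were 1.04, 0.961, 0.994, 0.796 and 1.01. The second probe sets of Dnajb1 and Dnajb4 were higher in males, at -0.31 and -0.29 on the log2 scale (Mann-Whitney adjusted p = 8.33e-13 and 2.59e-04). That of Dnaja1 was higher in females, at 0.22 (adjusted p = 4.39e-11), and those of Hspa1b, Hspa4l and Hspb1 did not pass. The count of 0 in males thus depends on the probe set. Hsph1 was 1.24-fold higher in females (adjusted p = 2.82e-06), but lost its direction both with the 3' to 5' ratios as covariates (-0.02 on the log2 scale) and in its second probe set (-0.03). The 21 constitutive cytosolic members counted Dnajb12 and Dnajb14 of the ER membrane among them. Of these 21, 9 showed a female bias and 2 a male bias, beside 19.6% and 11.1% of all genes. Counted with the ER instead, this pair made 6 female and 1 male of 9 there and left 8 and 1 of 19 here. Members with female bias thus stood in both the heat-inducible and the constitutive list. The median ratios were 1.00 (inducible) and 1.03 (constitutive), beside 1.01 over all genes.

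How far the calls hold across the code numbers and probe sets was uneven. When each sex was cut by code number into 3 groups, of 31 females or 38 males each, 12 of the 24 called members kept their direction in all 9 comparisons, 10 of them female and 2 male. Bag3, Dnajb11 and Dnajc1 passed in 8 of the 9, and 0 members passed in all, while 5 had an unadjusted Mann-Whitney p under 0.05 in all 9. Of the 18 called members with other tested probe sets, 4 were called the same way by all of them, and 5 (Dnaja2, Dnaja3, Dnajc13, Dnajc3 and Dnajc5) had one that was called the opposite way. The 3' to 5' ratio of Gapdh differed between the sexes, at 0.917 ± 0.065 (SD, n = 93) in females and 0.791 ± 0.030 (SD, males) in males, and with these ratios as covariates 12 members passed, of which 7 were among the 24 (Bag3, Bag4, Dnaja2, Dnajb14, Dnajc12, Dnajc13 and Hspa4) and the others were Dnajb5, Dnajc4, Dnajc8, Hspd1 and Hspe1.

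**Figure D2:**
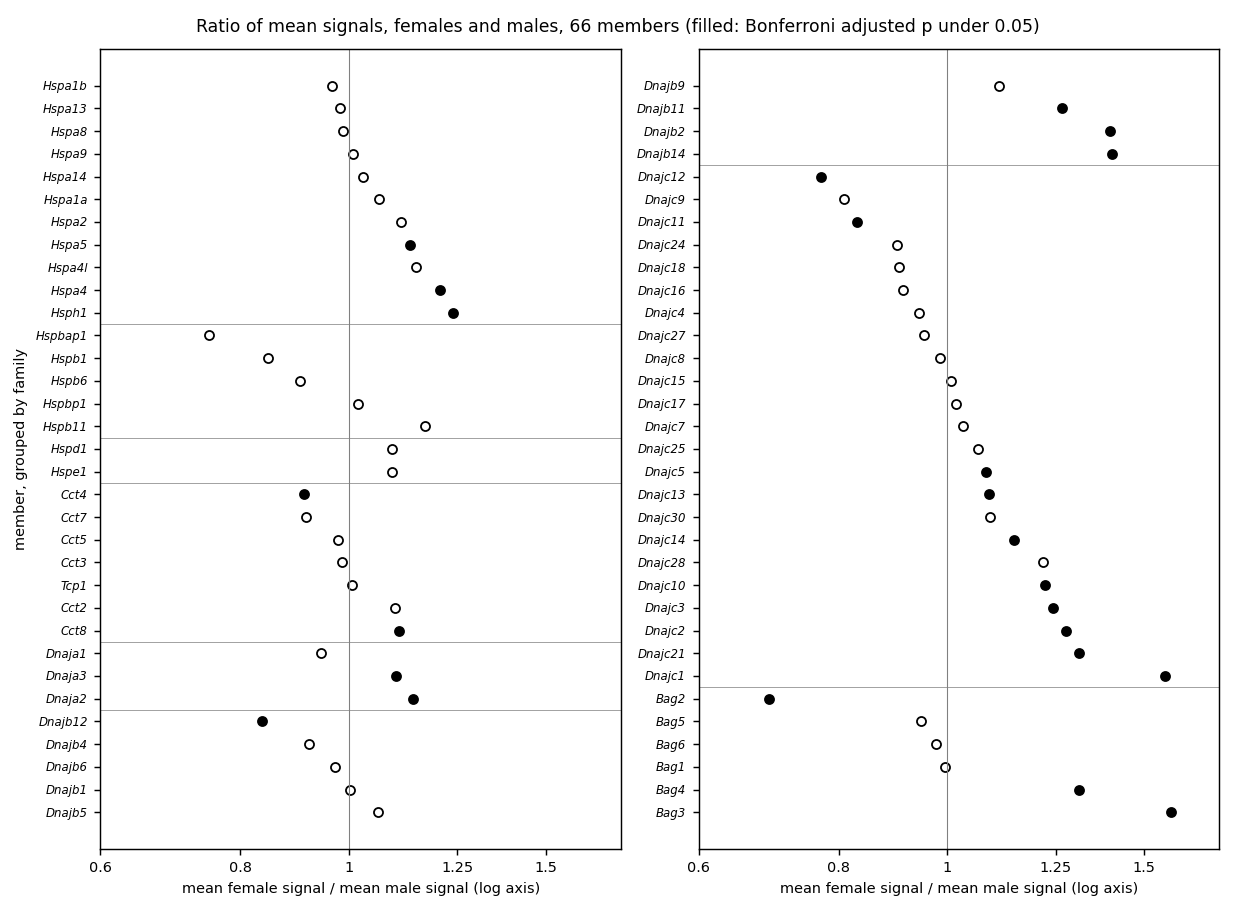
Ratio of the mean MAS5 signal in 93 females to that in the males (log axis) for each of the 66 members, grouped by family, with filled points where the Bonferroni-adjusted Mann-Whitney p was under 0.05. Filled points lie to the right of 1 for 19 members, with Bag3 farthest at 1.58, and to the left for 5.

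The second question was how the members ran along the code number. In the females 11 members rose and 10 fell with it (limma on log2 signals, Bonferroni), 31.8% of the 66 in all, beside 14.6% and 17.4% of all genes (32.1% in all). In the males 14 rose and 8 fell, 33.3% in all, beside 17.6% and 17.7% (35.3% in all). These shares were near the background. Both sexes shared 8 rising members (12.1%, beside 11.9% of all genes) and 6 falling ones (9.09%, beside 13.2%), and 0 were called in opposite directions, also at an unadjusted limma p under 0.05 in both sexes. No slope differed between the sexes past the threshold in the limma interaction (0.46% of all genes did), with 16 members at an unadjusted p under 0.05 and 6 after Benjamini-Hochberg adjustment. The share of all genes was counted at the Bonferroni threshold only, so the last counts cannot be set against a background.

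The inducible Hsp70 genes rose most steeply. Hspa1a had a lowest, median and highest signal of 69.8, 131.3 and 232.6 in the 31 lowest-numbered females and of 58.2, 319.3 and 1177 in the 31 highest-numbered. In the males the same values were 46.8, 123.8 and 243.1 in the 38 lowest-numbered and 64.6, 263.9 and 961.6 in the 38 highest-numbered. The groups overlapped in both sexes. The slope per 10 numbers was 0.19 ± 0.04 (SE, log2) in females (adjusted p = 0.0197) and 0.17 ± 0.02 in males (adjusted p = 1.06e-11). Without the runs of mice the Hspa1a slope fell to 0.15 ± 0.03 in females, which no longer passed (adjusted p = 0.457), and to 0.14 ± 0.01 in males (adjusted p = 2.68e-12), which did.

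Hspa1b went the same way, from a median of 227.4 to 638.2 in the females and from 315.6 to 447.9 in the males. Its slope was 0.19 ± 0.03 in females (adjusted p = 0.00145) and 0.11 ± 0.02 in males (adjusted p = 0.0157). Without the runs it was 0.15 ± 0.03 in females (adjusted p = 0.0266) and 0.07 ± 0.02 in males, which did not pass (adjusted p = 0.601). With the 3' to 5' ratios as covariates neither Hspa1a nor Hspa1b passed in either sex. The rise of Hspa4l in males, 0.08 ± 0.02 (adjusted p = 0.0326), was 0.05 ± 0.01 without the run (adjusted p = 0.014) and turned with those covariates, to -0.00266.

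Other members rose as well. Hspb11, named with the small heat-shock proteins but known as a subunit of intraflagellar transport, had medians of 462.9, 659.9 and 716.1 over the 3 groups of females and 384.1, 598.2 and 635.9 over those of males. Its slope was 0.12 ± 0.01 in females (adjusted p = 6.71e-09) and 0.10 ± 0.01 in males (adjusted p = 1.84e-14), and 0.10 and 0.09 without the runs. With the mitosis genes described below as a covariate it was 0.01 in females and 0.04 in males and did not pass. Dnajc1 rose by 0.08 ± 0.01 in females and 0.09 ± 0.01 in males (adjusted p = 4.18e-19), and its second probe set rose too, by 0.11 and 0.09. Dnajb14 rose by 0.07 and 0.05, and Dnajc28 by 0.12 and 0.09, the female slope of Dnajc28 not passing with the 3' to 5' ratios (adjusted p = 0.0511). Hspa14 rose by 0.04 in both sexes, but in females not without the run (0.03, adjusted p = 0.223), and with the 3' to 5' ratios in neither. Its partner in the ribosome-associated complex, Dnajc2, fell by 0.10 ± 0.01 per 10 numbers in females (adjusted p = 4.54e-07), and was at -0.03 in males without passing.

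Dnajc9 fell most. It encodes a J domain protein that escorts newly made histones. Its median went from 929.1 to 444.6 and 367.3 over the 3 groups of females and from 1136 to 619.4 and 426.4 over those of males. The highest-numbered males, at 277.5 to 636.8, all lay below the lowest-numbered, at 649.6 to 1968, and the female groups overlapped, at 214.5 to 593.5 against 496.7 to 1625. The slope was -0.23 ± 0.02 in females (adjusted p = 7.26e-21) and -0.17 ± 0.01 in males (adjusted p = 9.34e-26). All 19 genes of mitosis measured also fell in both sexes, and with their mean as a covariate the Dnajc9 slope was -0.05 in females and -0.06 in males and did not pass. With that covariate 1 member passed in each sex, Dnajc18 in females and Dnajc1 in males. The genes of mitosis and the code number run together, and their parts cannot be told apart here.

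Of the 7 mitochondrial members 2 fell in each sex, and of the 7 TRiC subunits 2 fell in females and 3 in males, beside 17.4% and 17.7% of all genes. Hspd1 had medians of 8524, 6204 and 6293 in the 3 groups of females and 7487, 6182 and 5446 in those of males, with slopes of -0.06 ± 0.01 (adjusted p = 4.74e-05) and -0.05 ± 0.01 (adjusted p = 6.45e-05). With the 3' to 5' ratios as covariates in limma the female slope of Hspd1 passed (-0.05, adjusted p = 0.013), and the male slope did not (-0.04). Hspe1, whose product caps the Hspd1 ring, was at -0.02 in both sexes and did not pass. Of the TRiC subunits, Cct5 and Cct7 fell in both sexes, by 0.03 and 0.04 in females and by 0.02 and 0.03 in males. Tcp1 fell in males (-0.03 per 10 numbers, adjusted p = 5.39e-06), and in females it was at -0.02 without passing, and passed without the females smi99 to smi105 (-0.04, adjusted p = 5.54e-07), with the 3' to 5' ratios as covariates and by Spearman's correlation.

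Bag3, higher in females, fell along the code in both sexes. Its medians were 1374, 1148 and 1093 in the 3 groups of females and 900.9, 663.9 and 660.0 in those of males, so that the females of every group were above the males of every group in the median. The slopes were -0.05 ± 0.01 (adjusted p = 0.00762) and -0.04 ± 0.01 (adjusted p = 0.00901), and neither passed without the runs of mice (-0.04 in both, adjusted p = 0.0977 and 0.131). The inducible members thus went both ways along the code, with Hspa1a and Hspa1b rising, Bag3 falling and Hspb1 at 0.01 in females and -0.05 in males without passing.

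**Figure D3:**
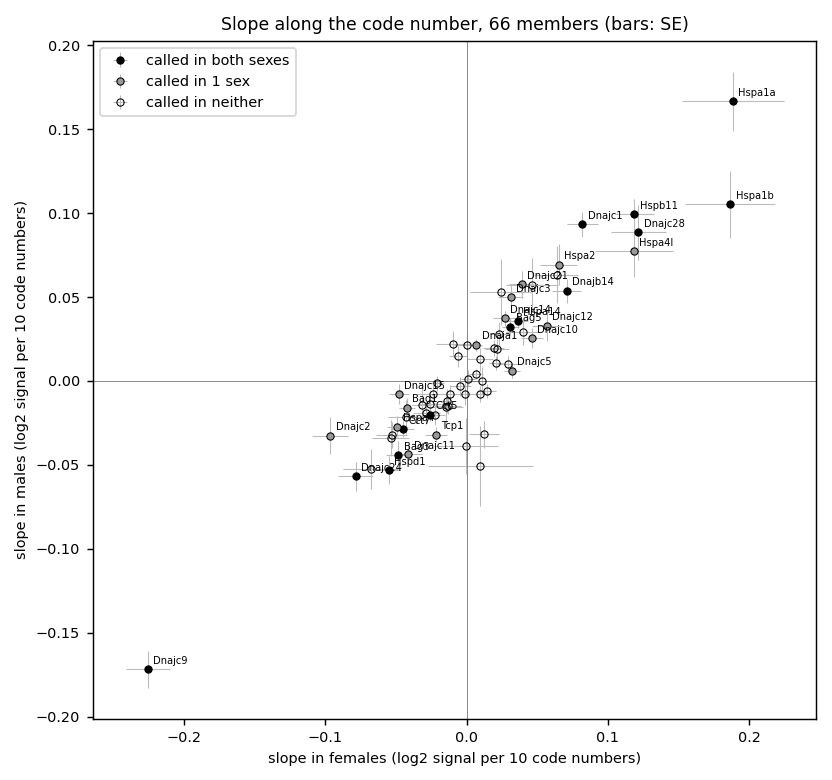
Slope of log2 signal per 10 code numbers in males (vertical axis) against that in females (horizontal axis) for the 66 members, with bars for the SE, black points for members called in both sexes, grey for those called in 1 sex and open for those called in neither. Hspa1a and Hspa1b lie at the upper right, with female slopes of 0.19, and Dnajc9 at the lower left with a female slope of -0.23.

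**Figure D4:**
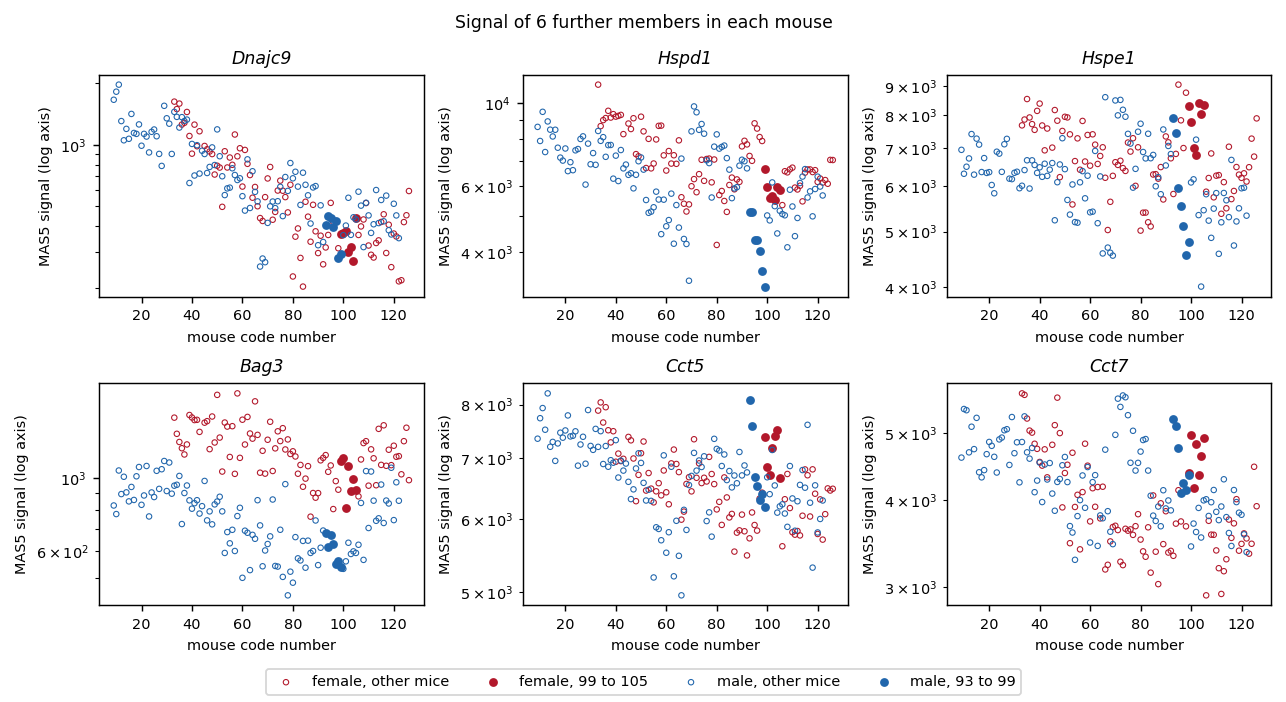
MAS5 signal (log axis) of Dnajc9, Hspd1, Hspe1, Bag3, Cct5 and Cct7 against the mouse code number, 1 point per mouse, with colours and filled points as in the plot of Hspa4l. Dnajc9 falls from medians of 929.1 in the lowest-numbered to 367.3 in the highest-numbered females, and the Bag3 points of females lie mostly above those of males.

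The third question was whether members known to work together varied together from mouse to mouse. It was read as Pearson's r of log2 signals for 10 pairs in 3 sets of mice, the females, the males 14smi55 to 14smi78 and the other males, and 19 of the 30 passed 0.05 after Benjamini-Hochberg adjustment of 100000 permutations. Since neighbouring mice resemble each other, these p-values too are smaller than independent mice would give. Hspd1 and Hspe1, which share the promoter stretch shown above, had r of 0.64 in females, 0.91 in the 24 males and 0.68 in the other males (Spearman's rho 0.61, 0.92 and 0.66), with a permutation p of 1e-05 in each, the smallest these permutations can give, and adjusted p = 3.7e-05. Without the runs of mice it was 0.78 in females and 0.73 in the other males, and with the code number removed 0.59, 0.90 and 0.58. Without the 2 mice farthest from the median it was 0.62, 0.90 and 0.63.

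Hspa1b followed Hspa1a, with r of 0.79, 0.71 and 0.81 (rho 0.79, 0.65 and 0.63), as a pair that can cross-hybridize. Without the runs of mice Hspa1b had r with Hspa1a of 0.70 in females and 0.64 in the other males. With Dnajb1, its J domain partner, no Pearson value passed, at r of -0.04, 0.08 and 0.10 (permutation p = 0.733, 0.714 and 0.328, adjusted p = 0.759, 0.759 and 0.428). That pair turned with the setting: in the other males Spearman's rho was 0.23 (adjusted p = 0.0427) and r without the run 0.28 (adjusted p = 0.0177), while in the females r was 0.16 without the run (adjusted p = 0.174) and -0.28 with the code number removed (adjusted p = 0.0122). With Hsph1 it had r of 0.60 in females and 0.37 in the other males, and 0.35 and 0.36 without the runs, while the 24 males gave -0.14. With Hspb1 it had r of 0.82 in the 24 males (permutation p = 1e-05), 0.35 in females and 0.10 in the other males, where Spearman's rho was 0.26 (adjusted p = 0.0232) and r with the code number removed 0.24 (adjusted p = 0.0404). With Bag3, Hspa1b had r of -0.29 in females (adjusted p = 0.00845), 0.14 in the 24 males and -0.22 in the other males. In females it was -0.04 with the code number removed and did not pass. With Hspa8, Hspa1b had r of 0.37 in females, 0.11 in the 24 males and 0.30 in the other males. In females and the other males this passed (adjusted p = 0.000675 and 0.00774). Neither passed with the code number removed (0.19 and 0.16) or without the runs (0.19 and 0.12). Differences between the sets of mice were not tested.

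Hspa5 and Dnajb11, the ER pair, had r of 0.41, 0.45 and 0.43 (rho 0.43, 0.54 and 0.46). Hspa1b and Hspa5 had r of -0.01 in females, -0.52 in the 24 males and -0.33 in the other males. Both male values passed (adjusted p = 0.0157 and 0.00312). The other males did not pass with the code number removed (-0.20, adjusted p = 0.0806), nor the 24 males without the 2 mice farthest from the median (-0.45, adjusted p = 0.0536). In females without the run, rho was -0.27 (adjusted p = 0.0197) and r was -0.15 (adjusted p = 0.223). Tcp1 and Cct2, subunits of one ring, had r of 0.73 in females, 0.22 in the 24 males and 0.14 in the other males (rho 0.40, 0.16 and -0.10). Without the females smi99 to smi105 the female value was 0.32, and without the males 14smi93 to 14smi99 the value in the other males was -0.24. With the code number removed, and the runs kept, all 3 sets gave positive values of r that passed, 0.87, 0.62 and 0.48 (adjusted p = 3.3e-05, 0.00302 and 9e-05). By Spearman's rho these were 0.66, 0.63 and 0.21, and the value in the other males did not pass (adjusted p = 0.0696).

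**Figure D5:**
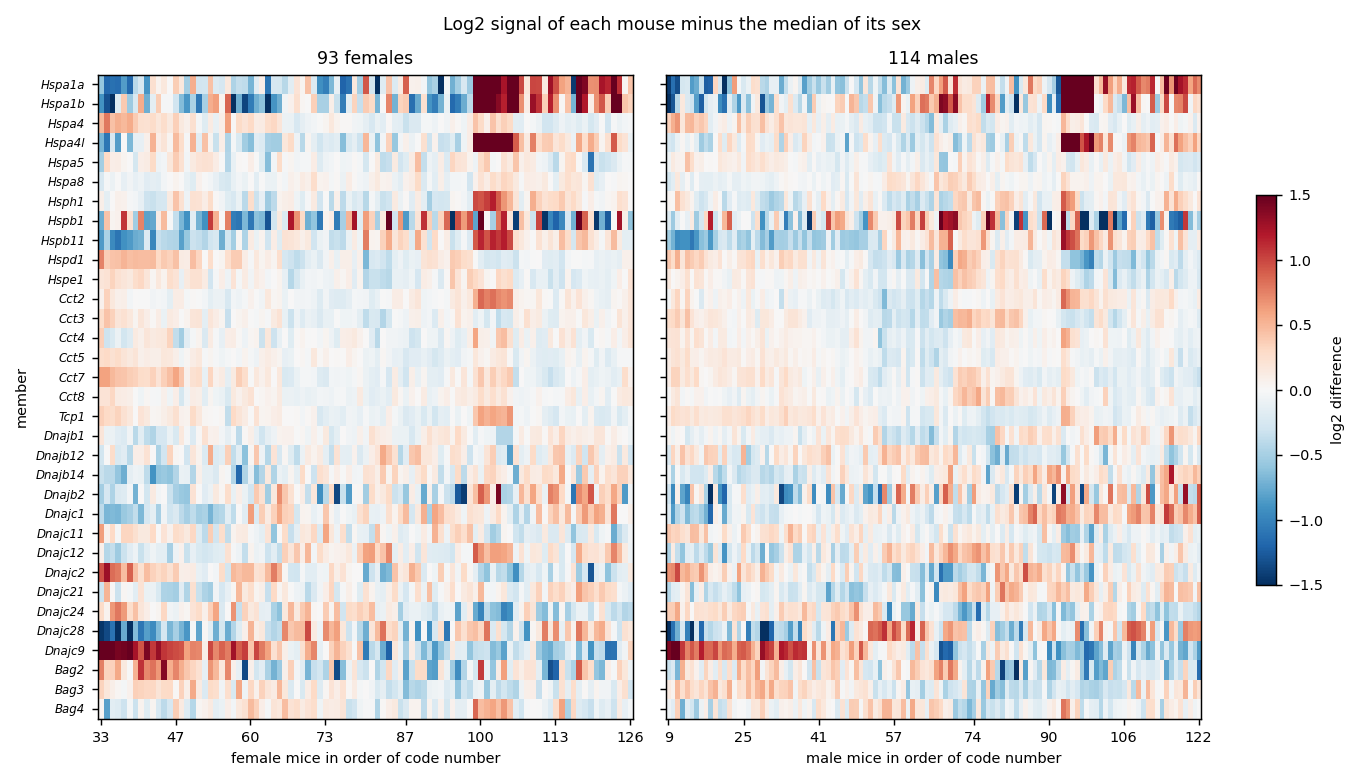
Log2 signal of each mouse minus the median of its sex (colour scale from -1.5 to 1.5) for the 33 members singled out, in rows by family, with females (left) and males (right) in order of code number. The females smi99 to smi105 and the males 14smi93 to 14smi99 stand out as dark columns in Hspa1a, Hspa1b and Hspa4l, and Dnajc9 goes from red to blue along both panels.

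Partners of these chaperones outside the set were read in the same way. Of 21 measured Hsp90 genes and co-chaperones, 2 had a female and 2 a male bias, a smaller share than the 30.6% of all genes, and Hsp90aa1, the inducible cytosolic Hsp90, was at 9005 ± 941 (SD, n = 93) and 8636 ± 1324 (SD, males) without passing. Along the code number 1 of the 21 rose and 6 fell in females, and 3 rose and 5 fell in males. Trap1, the mitochondrial Hsp90, fell in both sexes, by 0.07 per 10 numbers in females (adjusted p = 5.67e-14) and by 0.05 in males (adjusted p = 1.27e-12), as did Hspd1. Of the 10 measured prefoldin genes and partners of TRiC, 2 were higher in each sex, among them the phosducin-like Pdcl3, which assists TRiC, 1.30-fold higher in males (adjusted p = 3.77e-23), and the prefoldin-like Uri1, 1.33-fold higher in females (adjusted p = 3.35e-13). Cct6a, the remaining subunit of the ring, was at -0.03 in females and -0.01 in males without passing.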

How the data were processed

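One array per mouse was read. The authors hybridized macrophage RNA to Affymetrix 430v2 arrays and deposited MAS5 signal intensity values, on a linear scale and scaled to the whole chip. They were used as deposited. Per the labels, females and males were assigned by their source, and code numbers were copied from the titles. The annotation listed 35890 probe sets, 34958 with 1 symbol and 932 with several, of which 34754 matched RefSeq (GRCm38.p6) by gene identifier. Probe sets with a 67th percentile of at least 100 were tested, and a gene was read from its brightest one. The sexes were compared by 2-sided Mann-Whitney tests on signals, as the paper's methods state, and code trends by limma on log2(signal + 1), both with Bonferroni adjustment over 20036 probe sets. Since logs were taken of the signal + 1, slopes of dim genes are understated. Nothing says that mice were cultured apart in time. The p-values treat the mice as independent, and they are too small because mice of adjoining numbers resemble each other. The number of arrays limits the precision. The methods were tested on simulated data in which the mice were independent, so the likeness of neighbouring mice was not covered. Genotypes were not used, since their codes name no array.

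The members and gene lists were chosen with earlier results of these data known. Named were Hspa1a, Hspa1b, Hspa8, Hspa5, Hsph1, Hspb1, Hspd1, Hspe1, Dnajb1, Bag3, Tcp1 and the Cct subunits, and the 6 called members with the largest ratio or steepest slope in each direction; other members, and the mice smi99 to smi105 and 14smi93 to 14smi99, were singled out after their values were seen. Alternatives were other scalings, signal minimums, probe sets, adjustments, tests, covariates and subsets of mice. limma 3.58.1 ran in R 4.3.3, and the rest in Python 3.11.15 with scipy 1.17.1, numpy 2.4.6, matplotlib 3.10.9 and pandas 2.3.3.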

Additional observations from a re-analysis of the deposited data

How the results depend on the processing

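The sexes share 89 code numbers, but nothing in the labels pairs mice of 1 number, and their deviations from the means of their sex correlated over 0.1 in 55 of the 89. With the line along the code number taken out, the count was 34 of the 89, and the median r went from 0.20 to 0.03. With the number as a replicate block, chosen after seeing the data, 27 members passed in limma, 23 of them among the main 24. Of 89 females, 5 were closest to the male of their own number, and 2 with the line along the code number taken out. Between the sexes, 24 members (19 higher in females, 5 in males) became 46 (29 and 17) after Benjamini-Hochberg adjustment, 12 (9 and 3) with the 3' to 5' ratios as covariates, and 0 (0 and 0) over all 9 comparisons of code groups, which are smaller. With the second brightest probe set of the 40 members that have one, 7 were higher in females and 11 in males. Along the code in females, 21 members (11 rising, 10 falling) became 47 (25 and 22) after Benjamini-Hochberg adjustment, 12 with the second probe set (2 falling), 1 (0 and 1) with the mitosis genes as a covariate, and 3 rising with the 3' to 5' ratios. In males, 22 (14 rising, 8 falling) became 48 (28 and 20), 5 (4 and 1), 1 (1 and 0) and 14 (7 rising) under the same settings. The share of all genes was not counted under any of these other settings, so their counts cannot be set against a background. Slopes of 2 members, Bag1 and Dnajc2, were lower in females than in males when only code numbers that both sexes share were used. The other counts stayed within 1.5 times under the other scalings, signal minimums, pseudocounts and tests and without either run of mice.

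On the log2 scale, the second probe set turned the sex difference of Dnajb1 to -0.31 and Hspe1 to -0.25, which passed, and of Hspa5 to -0.14 and Hsph1 to -0.0341, which did not. It also turned the female slope of Hspa4 to 0.0103. The 3' to 5' ratios turned the sex difference of Hsph1 to -0.0229 and the male slope of Hspa4l to -0.00266. The mitosis genes turned the female slopes of Dnajc12 to -0.00577 and Hspd1 to 0.00156 and the male slope of Bag3 to 0.0113. The cause was not tested. Leaving out the females smi99 to smi105 and the males 14smi93 to 14smi99 was chosen after seeing the data. It left 19 members called in females, 16 of them the same, and 21 in males, 20 of them the same. Signals near the minimum limit what can be said of Hspa2, Hspbap1 and Dnajc27.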
